A study of Mus musculus with 8 samples.

Results

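Processed pseudogenes are copies of messenger RNAs that were reverse transcribed and inserted back into the genome, so they carry the exons of their parent gene joined together, without its introns, and usually without its promoter. Mouse chromosomes hold a great number of them, many copied from short, abundant mRNAs such as those of ribosomal proteins. A copy may be transcribed from a promoter nearby, may be read as part of a host gene when it sits in an intron, or may collect reads that its parent produced, because a short read from a near-identical stretch can be placed on either. The RNA assigned to such loci was compared between the chromatin and the nucleoplasm of HL1 cells, a mouse atrial cardiomyocyte line derived from AT-1 cells. Nuclei were extracted with urea and detergent. The pellet was the chromatin fraction and the supernatant was the nucleoplasm. Directional short-read libraries of rRNA-depleted RNA were made for both fractions from 3 independent cultures. Long-read libraries came from 2 chromatin preparations, whose RNA was tailed with poly(A) polymerase so that transcripts without a tail of their own could be primed as well. The cells were grown in Claycomb medium that contained norepinephrine.

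A locus was taken as a processed pseudogene when the assembled locus of the short-read table had its largest same-strand overlap with a gene that GENCODE M21 types as processed or transcribed processed pseudogene, with a Jaccard index (shared bases over the bases of either span) of at least 0.5. It also had to be above 0 in at least 1 of the 6 short-read libraries, so the members were chosen by the presence of reads in these libraries, and the number found and their being measured are not results. By this rule 898 of the 20637 assembled loci (4.35%) were processed pseudogene loci, 853 of the processed and 45 of the transcribed processed type, out of 10237 such genes annotated. Only 3 further matched loci were at 0 in all 6 libraries. The Jaccard index had a median of 0.75. Just inside the limit lay Gm45162 (0.500) and Gm6394 (0.501), with means over the 6 libraries of 61.3 and 392.7 normalized counts, and just outside lay AC122253.2 (0.4995) and H3f3a-ps1 (0.4994), with 244.6 and 665.0. An intron of a same-strand gene held 101 of the loci, with no exon of that gene touched. The other 797 comprised 597 with no other annotated gene on either strand, 176 with a gene on the opposite strand only, and 24 that overlapped a same-strand gene in another way.

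Values are gene counts that the authors divided by a size factor per library, called normalized counts here. The reads behind them totalled 100595246, 93400735 and 91657034 for chromatin 1 to 3 and 102000472, 96684935 and 121773350 for nucleoplasm 1 to 3, and the median locus had 182.0 reads in a chromatin library and 726.0 in a nucleoplasm library. The median of the means over 6 libraries was 454.5 normalized counts (lowest 0.490, highest 37133), 891 of the 898 loci had a mean of at least 10, and 894 were above 0 in all 6 libraries. The cell line's identity was checked on 13 genes of atrial cardiomyocytes. All had an entry above 0. The most abundant was Ryr2, the calcium release channel of the sarcoplasmic reticulum, and the natriuretic peptide gene Nppa had a mean of only 48.6. Summed over the list, levels were 552675, 554134 and 345769 in the chromatin libraries 1 to 3 and 311076, 319826 and 163491 in those of nucleoplasm. The genes Gata4 and Mef2c of this list were the highest of their fraction in both libraries numbered 3. Even so, the sums of both libraries numbered 3 were the lowest of their fraction. The opposite held for 6 fibroblast genes, of which the collagen gene Col1a1 was the most abundant, with 120670, 135634 and 174007 in chromatin and 259205, 253853 and 461035 in nucleoplasm. Of 4 endothelial genes Cdh5 was at 0 and Kdr was the most abundant, and the list summed to 1422, 1552 and 862 in chromatin and 2576, 2452 and 1559 in nucleoplasm. Of 4 macrophage and leukocyte genes Adgre1 was at 0 and Cd68 was the most abundant, and the sum lay between 76.8 and 180.0 in every library. The part of these differences between cultures in the results below was not tested, but without both libraries numbered 3 the counts of lower and higher loci were 823 and 21, against 819 and 20 with them.

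RNA assigned to processed pseudogene loci was mostly recovered in the nucleoplasm. By limma on log2(normalized count + 1), fitted over the 35830 genes that any library detected and adjusted after Benjamini-Hochberg, 819 of the 898 loci (91.2%) had an adjusted p under 0.05 and lower values in chromatin, and 506 (56.3%) were more than 4-fold lower. Over all genes tested the shares were 20.9% and 4.9%. Only 20 loci (2.23%) were higher in chromatin and 8 (0.891%) more than 4-fold higher, against 26.9% and 15.7% of all genes. The remaining 59 loci did not pass the test. Such bulk values are averages over many cells and do not show how the RNA was divided between the fractions in each cell. The median log2 fold change, chromatin over nucleoplasm, was -2.09 (quartiles -2.39 and -1.46), against 0.38 for all genes tested and -0.32 for the 10957 assembled loci matched to protein-coding genes. Fold changes are on the log2(value + 1) scale, which understates the change of loci with few counts. All chromatin libraries lay below all nucleoplasm libraries at 833 loci and above them at 26, which compares with 23.8% and 31.5% of all genes tested.

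The libraries tell the same in sums. In chromatin the 898 loci together held 388346, 441382 and 422990 normalized counts in replicates 1 to 3. In nucleoplasm they held 1508370, 1543040 and 1692200. As a share of the library this was 0.425% ± 0.0391 of chromatin reads (SD, n = 3) and 1.57% ± 0.307 of nucleoplasm reads (SD, n = 3), with no overlap between the fractions. The 10 highest loci held 17.2% of the summed means. When each library was instead scaled to the same total of spiked ERCC standards, the median of all genes moved from 0.38 to 0.84 and that of the pseudogene loci from -2.09 to -1.36, so the loci minus all genes came to -2.20 rather than -2.47 on the log2 scale. With that scaling 649 loci were lower and 34 higher by limma, against 8.67% and 34.8% of all genes. Past 4-fold were 33 lower and 10 higher rather than 506 and 8, against 0.617% and 22.3% of all genes. The fall of the group therefore kept its direction, while its size past 4-fold depended on the scaling.

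Known nuclear and exported RNAs show how the fractions behaved. Gapdh and B2m, whose spliced mRNAs leave the nucleus, had log2 fold changes of -2.07 and -2.67 (limma), and the nuclear RNAs Malat1 and Pvt1 had 3.82 and 3.93. With ERCC scaling these were -1.34, -1.94, 4.55 and 4.67. The median pseudogene locus thus lay close to Gapdh.

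The 5 loci with the highest levels outside introns were copies of abundant housekeeping mRNAs. Gm15459 (MSTRG.13814, chromosome 5 from 5781507 to 5783629, minus strand, mm10) is a copy of Hspa8, the constitutive cytosolic chaperone of the heat shock 70 family. It had 14224, 15952 and 17927 normalized counts in chromatin and 55083, 56071 and 63540 in nucleoplasm. By limma the log2 fold change was -1.86 with a standard error of 0.12 and an adjusted p of 8.50e-05, and every nucleoplasm library was above every chromatin library. The locus shared 99.7% of its aligned bases with Hspa8, and it touches an exon of the lincRNA gene Gm26825 on the opposite strand. Only 1.16% of its 50-base words were found in no other annotated transcript of either strand, and 86.8% were found in a protein-coding one. Per kilobase it stood at 103% of the level of Hspa8 itself, whose log2 fold change was -1.60. Gm12715, a copy of the cytoplasmic actin gene Actg1 on chromosome 4, went from 39591 ± 1242 (SD, n = 3) in nucleoplasm to 10100.2 ± 1259 in chromatin, or -1.98 on the log2 scale beside -1.92 for Actg1. Gm13456, a copy of the translation elongation factor gene Eef1a1 on chromosome 2, changed by -2.17, the same as Eef1a1 to that precision. The entries of Hspa8 and Eef1a1 overlap their genes with a Jaccard index of only 0.43 and 0.31, so the parents' values are less certain. Gm8355, another copy of Hspa8, on chromosome 10, changed by -1.91. Gm6560, a copy of the glycolytic enzyme gene Pkm on chromosome 5, went from 23513 ± 4351 (SD, n = 3) to 8573 ± 510.2. Its log2 fold change of -1.44 was more negative than that of Pkm, -0.69, and with ERCC scaling it was -0.71 and no longer passed the test.

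The 5 intronic loci with the highest means differed from their hosts in direction or in level. Gm8399 (chromosome 13 from 81064700 to 81066602, plus strand), another copy of Actg1, lies in an intron of the noncoding gene 9330111N05Rik. It had 5538, 6617 and 5194 normalized counts in chromatin and 22439, 22276 and 23074 in nucleoplasm. The change by limma was -1.97 log2 units (standard error 0.11, adjusted p = 4.84e-05). The host went the other way, from 5.41 ± 1.46 (SD, n = 3) in nucleoplasm to 32.0 ± 8.66 in chromatin, or 2.36 on the log2 scale. Gm12346, a copy of the chaperone gene Hsp90aa1 in an intron of the phosphatase gene Ssh2, fell by 1.79 on the log2 scale while Ssh2 rose by 1.46 and in chromatin had the higher mean, 17027 against 5831. The entry of Hsp90aa1 (Jaccard index 0.44) changed by -1.82. Oaz1-ps, a copy of the antizyme gene Oaz1, had a log2 fold change of -2.30 beside -2.33 for Oaz1, and its host AC154200.1 had at most 4.07 normalized counts in any library. Rpl10-ps1, identical to Rpl10 over the aligned bases and without a 50-base word of its own, fell by 2.22. Rpl10, a ribosomal protein gene, changed by -1.26, and the host Pax6os1 was at 0 in every chromatin library. Gm5903, a copy of the ubiquitin ligase gene Rfwd3 in an intron of Fgfr2, went from 8039 ± 226 (SD, n = 3) in nucleoplasm to 5385 ± 371 in chromatin. This gave a log2 fold change of -0.58 (adjusted p = 0.00179 by limma), which turned to 0.15 with ERCC scaling. The assembled entry of Fgfr2 does not reach the insert. Its means were 11.4 in chromatin and 1.45 in nucleoplasm, and it did not pass the test (2.59, adjusted p = 0.0553 by limma).

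The split by intron separated the loci little. Of the 101 intronic loci 90 (89.1%) were lower and 4 (3.96%) higher in chromatin, with a median log2 fold change of -2.02. Of the other 797, 729 (91.5%) were lower and 16 (2.01%) higher, with a median of -2.10. No test of the difference was made. The hosts differed from their inserts far more. For the 78 intronic loci whose host had an entry of its own, the median log2 fold change was -2.03 for the loci and 0.39 for the hosts, and the host lay above its insert in 72. The median distance within a pair was 2.35. In 22 pairs the host was higher in chromatin, and 18 of those inserts were lower and 2 higher. In 13 pairs the host was lower, and 10 of the inserts were lower too. Protein-coding genes hosted 75 of the intronic loci, of which 65 were lower and 4 higher. LincRNA genes hosted 16, of which 15 were lower.

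The intronic loci with the largest falls were copies of mRNAs for ATP synthase, enolase and ribosomal proteins. Gm9712, a copy of the ATP synthase subunit gene Atp5l on chromosome 7, had 69.1, 74.4 and 61.4 normalized counts in chromatin and 466.9, 424.3 and 478.3 in nucleoplasm. It fell by 2.73 log2 units (standard error 0.14, adjusted p = 3.90e-05 in limma), and the entry of Atp5l, which overlaps that gene with a Jaccard index of only 0.46, did not pass the test (0.01). Its host Ccdc114, a ciliary gene, had under 11 counts in every library. Gm7252, a copy of Rpl29 in an intron of Ispd, fell by 2.64, and Gm14541, a copy of Rpl39 in an intron of C330007P06Rik, changed by -2.62. C330007P06Rik rose by 1.18 and Ispd did not pass the test (0.25, adjusted p = 0.350 by limma). Gm5855 on chromosome 3, which aligned best to the enolase gene Eno1b, fell by 2.65 with a wider spread (standard error 0.55). Its chromatin replicate 3 had 42.7 counts where replicates 1 and 2 had 132.1 and 192.8. Without that library its log2 fold change was -2.03, so its place among the largest falls rests on chromatin replicate 3.

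Copies of ribosomal protein mRNAs made up the largest family. Parent genes were assigned by alignment to spliced protein-coding transcripts, which gave a parent to 891 loci and 423 parents in all. Cytosolic ribosomal protein genes were the parents of 387 loci. Of these 383 were lower in chromatin, 350 (90.4%) more than 4-fold, and 2 were higher, with a median log2 fold change of -2.34. With ERCC scaling 370 were lower by limma but only 20 more than 4-fold. Together they held 0.129% ± 0.0227 of the chromatin reads and 0.629% ± 0.166 of the nucleoplasm reads (SD, n = 3). The most frequent parent was Rps2, a protein of the small subunit, with 32 loci. All 32 were lower, between -2.15 and -1.85, and their means ranged from 123.2 to 1960 normalized counts. Next came Rpl21 with 31 loci, all lower, between -2.34 and -1.04, and Rpl7a with 20, all lower, with a median of -2.27 that equalled the parent's own value. Copies of Rpl29 had a median of -2.56 over 17 loci, of which 16 were lower, beside -2.60 for the parent. The 15 copies of Rps12 had a median of -2.41 beside -1.99 for Rps12.

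Other housekeeping families moved in the same direction by different amounts. All 25 copies of respiratory chain mRNAs fell, with a median of -2.45, and all 14 copies of the glycolytic mRNAs in the list used, which lacks Eno1b, fell, with a median of -2.25, including 8 of Gapdh between -2.32 and -2.25. All 11 copies of cytoskeletal mRNAs were lower (median -2.17), as were all 15 of histone and nucleosome chaperone mRNAs (-2.03), all 24 of HMG protein mRNAs (-1.89) and all 21 of translation factor mRNAs (-1.89). Of 24 copies of chaperone mRNAs 22 were lower and 1 higher (-1.96), and of 16 of the proteasome and ubiquitin group 15 were lower (-1.59). The smallest fall was that of 33 copies of mRNAs for hnRNP and other RNA binding proteins, with a median of -1.32 and 32 of them lower. Outside these 10 families, 321 loci with a parent had a median of -1.36, with 254 lower and 15 higher. With ERCC scaling this median was -0.63, with 132 lower and 28 higher. The 7 loci without a parent, 3 lower and 2 higher, had a median of -0.51, which turned to 0.20 with ERCC scaling. With ERCC scaling each of the 10 family medians stayed below 0, from -1.74 for the respiratory chain to -0.59 for the RNA binding group, where 14 of 33 copies were then lower. In the proteasome and ubiquitin group 9 of 16 were then lower. With quantile normalization they ranged from -2.63 to -1.32.

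Copies of the same parent mostly had similar fold changes, and at most parents they lay below it. A parent entry could be measured for 844 loci, either the assembled locus that overlapped the parent most or, failing that, an annotated transcript of it. For the 69 parents with at least 3 copies, the distance between the highest and the lowest log2 fold change of the copies had a median of 0.20. At 46 of these parents every copy lay below the parent, and at 59 the median copy did. Over all 844 loci the copy minus its parent had a median of -0.23 (quartiles -0.75 and -0.03), 566 copies (67.1%) lay within 0.5 log2 units of the parent, 155 more than 1 below and 13 more than 1 above. With parent entries of a Jaccard index of at least 0.5 only, the median was -0.22. Across the 844 loci the log2 fold changes of copy and parent had a Pearson's r of 0.68 and a Spearman's rho of 0.77. This is a description of loci that share the same libraries and, at near-identical stretches, may share reads, and loci are not independent replicates.

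The median distance from the parent was larger for parents with a longer genomic span, but not at every parent. Where the parent spanned at most 5 kb, the median was -2.30 for 420 copies and -2.08 for their parents. Parents spanning more than 5 and up to 20 kb had a median of -1.48, and their 243 copies -1.85. Parents over 20 kb had a median of -0.57, and their 181 copies -1.16. Of the last group 50 copies belonged to a parent that was higher in chromatin, but only 9 of the 181 copies were higher and 137 were lower. Hnrnpf, an RNA binding protein gene of 25299 bp, did not pass the test (0.14, adjusted p = 0.533 by limma), while all 6 of its copies were lower, between -1.64 and -1.53. Hnrnpa3, of 10147 bp, had -0.18 (adjusted p = 0.281 by limma) and its 12 copies, all lower, a median of -1.17. The distance was also large at a short parent: the 8 copies of Rpsa, a ribosomal protein gene of 4681 bp, lay between -2.42 and -2.29, and Rpsa at -0.69 (adjusted p = 0.145 by limma) did not pass the test. These parents were chosen after their values had been seen, as were the limits on span. The part that intron-containing RNA has in the parents' values was not tested.

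Most of the loci are close copies of their parents, though 81 are under 95% identical and the lowest is at 83.9%. Their alignment identity to the parent had a median of 98.3% (quartiles 96.8% and 99.3%), against 90.2% for the annotated processed pseudogenes that are not among these loci and that had a parent. A parent was found for 99.2% of the loci and for 71.3% of the 9339 pseudogenes not among them. In the median locus 60.8% of all 50-base words occurred in another annotated transcript and 47.5% in a protein-coding one, against 1.63% and 0 in the rest. Words of either strand were compared, so those of an exon lying opposite a locus count as shared too. Reads of words that copy and parent share cannot be assigned to either from their sequence. Counts at loci with near-identical copies are uncertain to that extent. Per kilobase the median locus stood at 14.8% of its parent (quartiles 7.91% and 29.3%), with locus span and parent transcript length as the lengths.

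Loci grouped by how much sequence is their own were mostly lower in each of the 5 groups, and no test between groups was made. Of the 159 loci in which at most 10% of the 50-base words were absent from every other annotated transcript, 151 were lower and 3 higher, with a median of -2.26. The median was -2.05 over 143 loci with more than 10% and up to 25% own words, -2.09 over 253 with up to 50%, -2.05 over 253 with up to 75%, and -1.81 over 90 with more. Of these 90 loci 74 were lower and 6 higher. Among the 343 loci with at least 50% own words 304 (88.6%) were lower, 173 (50.4%) more than 4-fold, and 14 (4.08%) higher. Words were compared with annotated transcripts of either strand only, not with the genome. A locus in this set may still share up to 50% of its words, and words of an exon lying opposite count as shared. The 11 loci in which every word was their own, a part of the 90, had 3 lower, 5 higher and 3 not passing the test. The 101 loci without any word of their own had 97 lower and 1 higher.

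Copies of Rps2 are printed here to show how little separates some of these loci. The 5 copies that come after the most abundant copy by mean were taken, over the 60 bases of the coding sequence (bases 25 to 84) in which they differ most from Rps2 in sum, and capitals mark the bases that differ from Rps2. The Rps2 stretch lies at chr17:24720300-24720359 (plus strand, mm10, within 1 exon). All sequences are of the GENCODE M21 transcripts, 5′ to 3′. Gm12366 lies at chr4:35202892-35202951 (minus), Gm5786 at chr12:59081043-59081102 (plus), AC090881.3 at chr17:31644696-31644755 (minus), Gm7432 at chr8:61381304-61381363 (minus) and Rps2-ps13 at chrX:52898612-52898671 (plus). Their log2 fold changes were -2.02, -2.08, -2.04, -2.08 and -2.02, and they differ from Rps2 in this window at 5, 2, 3, 3 and 2 positions. These 5 are closer to Rps2 than the median copy. They are 98.0% to 99.2% identical to it, with 10.2% to 28.0% own 50-base words. Over all 32 copies the medians are 96.7% and 46.2%.
Rps2: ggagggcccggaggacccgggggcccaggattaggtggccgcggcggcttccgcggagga
Gm12366: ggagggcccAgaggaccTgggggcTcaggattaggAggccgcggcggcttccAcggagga
Gm5786: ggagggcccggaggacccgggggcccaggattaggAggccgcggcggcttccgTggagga
AC090881.3: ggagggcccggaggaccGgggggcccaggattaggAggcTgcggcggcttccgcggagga
Gm7432: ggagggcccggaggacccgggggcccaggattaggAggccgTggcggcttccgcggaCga
Rps2-ps13: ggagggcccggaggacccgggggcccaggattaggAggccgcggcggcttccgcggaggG

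A small set of loci fell far below the rest, and some of them far below their parents. Gm6736 (chromosome 12 from 13454646 to 13455991, minus strand), a copy of the aldose reductase gene Akr1b3, had 4.07, 7.34 and 3.12 normalized counts in chromatin and 910.5, 960.0 and 646.5 in nucleoplasm. The change was -7.21 log2 units (limma, standard error 0.34, adjusted p = 3.18e-05), beside -2.02 for Akr1b3. Gm10136, a copy of Rpl26 on chromosome 19, had 15.2, 22.0 and 35.4 in chromatin and 1107, 1218 and 1624 in nucleoplasm, a log2 fold change of -5.77 beside -2.33 for Rpl26. Gm47154, a copy of Tmem223 on chromosome 9, had at most 3.14 counts in chromatin and at least 112.2 in nucleoplasm (-5.58), and its parent had no entry. Gm6654, a copy of Rps26, fell by 5.06 where Rps26 fell by 2.86. It had no word of its own when both strands were compared, and it touches an exon of Med21 on the opposite strand. Got2-ps1, a copy of the mitochondrial aspartate aminotransferase gene Got2, fell by 4.73 where Got2 fell by 1.92. Gm15590, a copy of the ferritin light chain gene Ftl1 on chromosome 17, had 44.7, 274.6 and 65.6 in chromatin and 4738, 6706 and 2033 in nucleoplasm, so its libraries varied more than those of the loci before it (-5.41, standard error 0.77). Leaving out a library gave values from -6.18 (without chromatin replicate 2) to -4.89 (without chromatin replicate 1). Gm8623, a copy of Rps16, was named after its values were seen. It had 399, 575 and 92.6 in chromatin and 4393, 3422 and 4245 in nucleoplasm, so chromatin replicate 3 stood apart. Its log2 fold change of -3.84 (standard error 0.67), near the -3.35 of Rps16, was -3.06 without that library.

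Most of these loci lie opposite another gene. In all 15 loci were lower by more than 3 log2 units, that is 8-fold, and 12 of them had an annotated gene on the opposite strand, against 187 of all 898 loci (20.8%). This limit was chosen after the values had been seen, and without chromatin replicate 3 it was passed by 12 of the 15. At 8 of the 12 the gene opposite was itself higher in chromatin, and so it was at 58 of the 148 loci whose opposite gene had an entry. Gm6736 lies opposite an intron of Nbas, which rose by 0.76, Gm10136 opposite an intron of Cdc37l1, which rose by 2.22, and Gm47154 opposite an intron of the DNA repair gene Mre11a, which rose by 0.98. Got2-ps1 lies opposite the lincRNA gene Gm10874, which rose by 2.96, and touches an exon of it. Of those 58 loci 53 (91.4%) were lower and 0 higher by limma, a share near the 91.2% of all loci. Their median, -2.27, was that of all 148, and 8 of them are among these 15. The libraries keep strand, but how reads of nearly identical copies or of the opposite strand were assigned was not tested.

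The stretch of 60 coding bases that differs most from the parent is printed for 3 of these loci, picked after their values had been seen, to show how they compare with the parent. Capitals mark bases that differ from the parent. Gm6736 at chr12:13455296-13455355 (minus strand, mm10) aligns to bases 616 to 675 of the Akr1b3 coding sequence, spliced from 2 exons within chr6:34309642-34310004 (minus), and differs at 2. Gm10136 at chr19:29003666-29003725 (minus) aligns to bases 118 to 177 of Rpl26, from 2 exons within chr11:68902392-68903187 (plus), and differs at 2. Got2-ps1 at chr5:138365064-138365123 (minus) aligns to bases 430 to 489 of Got2, from 2 exons within chr8:95872284-95874409 (minus), and differs at 3.
Akr1b3: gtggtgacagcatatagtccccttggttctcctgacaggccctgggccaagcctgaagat
Gm6736: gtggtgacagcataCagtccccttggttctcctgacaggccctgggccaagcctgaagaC
Rpl26: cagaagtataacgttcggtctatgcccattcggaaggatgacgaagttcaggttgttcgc
Gm10136: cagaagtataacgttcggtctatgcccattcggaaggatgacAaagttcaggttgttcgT
Got2: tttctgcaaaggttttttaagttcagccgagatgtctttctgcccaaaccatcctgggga
Got2-ps1: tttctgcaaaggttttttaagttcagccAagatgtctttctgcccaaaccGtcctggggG

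The 20 loci that were higher in chromatin are set here beside the 819 lower ones in sequence, in parent and in annotated type. Their alignment identity had a median of 96.4% and their own 50-base words a median of 64.03%, against 98.3% and 38.7% for the 819 lower loci. Only 2 of the 20 were copies of ribosomal protein mRNAs, against 383 of the 819. Where the parent had an entry, it was higher in chromatin for 9 of 16 of these loci, against 29 of 772 of the lower ones. Of the 45 loci of the transcribed type 6 (13.3%) were higher and 31 (68.9%) lower, with a median log2 fold change of -1.45. Of the 853 of the processed type 14 (1.64%) were higher and 788 (92.4%) lower, with a median of -2.10. The 20 are few, and no test of these shares was made.

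Outside introns the largest rise was that of Gm7444 (chromosome 9 from 56027636 to 56031573, plus strand), a copy of the ubiquitin ligase gene Rnf19a with 89.4% identity. It had 1019, 910.7 and 821.1 normalized counts in chromatin and 48.5, 53.9 and 57.3 in nucleoplasm, with no overlap. It rose by 4.08 log2 units in limma (standard error 0.14, adjusted p = 2.28e-05), while Rnf19a did not pass the test (-0.03, adjusted p = 0.894). No other annotated gene lies at the locus, and the nearest same-strand gene upstream, Isl2, is 481456 bp away. Gm6607, a copy of Rps20 on chromosome 9 with no word shared with another annotated transcript, had 131.1, 83.8 and 85.3 in chromatin and 6.06, 4.79 and 9.42 in nucleoplasm (3.72), where Rps20 fell by 1.97. It lies 1322 bp downstream of Anln, which did not pass the test. Gm14267, a copy of the cyclophilin gene Ppia whose locus spans 22031 bp of chromosome 2, rose by 2.76 where Ppia fell by 2.50. Gm13487, a copy of Taf1d, a subunit gene of a polymerase I transcription factor, had 784.7, 670.7 and 1304 in chromatin and 303.2, 268.5 and 361.7 in nucleoplasm. It rose by 1.51 and Taf1d by 1.79. Gm15975, a copy of the poly(A) polymerase gene Tent2 on chromosome 5, rose by 1.04.

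Sequences are also printed for 3 loci that rose, picked after their values had been seen and not by a rule, so their differences are not compared with those of the falls. The window of 60 coding bases with most differences is given, and capitals mark bases that differ from the parent. Gm7444 at chr9:56028472-56028531 (plus strand, mm10) aligns to bases 791 to 850 of the Rnf19a coding sequence at chr15:36260048-36260107 (minus) and differs at 13. Gm6607 at chr9:22330363-22330422 (minus) aligns to bases 109 to 168 of Rps20 at chr4:3834945-3835004 (minus) and differs at 7. Gm13487 at chr2:50522610-50522669 (minus) aligns to bases 324 to 383 of Taf1d at chr9:15308780-15308839 (plus) and differs at 4.
Rnf19a: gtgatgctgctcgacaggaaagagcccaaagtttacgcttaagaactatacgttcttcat
Gm7444: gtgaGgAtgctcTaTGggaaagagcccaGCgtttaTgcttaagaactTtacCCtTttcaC
Rps20: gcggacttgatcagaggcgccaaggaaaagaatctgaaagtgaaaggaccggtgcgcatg
Gm6607: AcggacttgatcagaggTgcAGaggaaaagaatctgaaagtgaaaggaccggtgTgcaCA
Taf1d: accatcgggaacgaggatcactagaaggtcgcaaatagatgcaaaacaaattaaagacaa
Gm13487: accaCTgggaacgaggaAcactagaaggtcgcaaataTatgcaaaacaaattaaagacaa

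The 4 intronic loci higher in chromatin were Gpx2-ps1, Gm16523, AA413626 and Gm20691. Gm16523, a transcribed copy of the mitochondrial ribosomal protein gene Mrpl40 with 86.8% identity, lies in an intron of Scai. It had 669, 602 and 542 normalized counts in chromatin against 31.3, 39.6 and 35.5 in nucleoplasm, a rise of 4.05 log2 units (limma, standard error 0.16, adjusted p = 2.60e-05). Scai rose less, by 0.86, and Mrpl40 fell by 1.89. Gm20691 is a copy of Gga3 in an intron of Ift80, a gene of intraflagellar transport, and rose by 1.82 beside 1.68 for Ift80 and 0.97 for Gga3. Gpx2-ps1 and AA413626 had means under 50 and were named after their values were seen. Gpx2-ps1, a copy of the glutathione peroxidase gene Gpx2 in an intron of Pgm2l1, had 47.8, 41.9 and 47.9 in chromatin and 0, 0 and 2.17 in nucleoplasm. The nucleoplasm value rests on 3 reads, which gives a ratio of 46.9 (95% exact interval 15.7 to 230.4, for counting error only). Pgm2l1 fell by 0.37 log2 units. Gpx2, whose entry had a mean of only 13.2 normalized counts, rose by 4.32. AA413626, for which no parent was found, lies in an intron of Thoc5, a gene of mRNA export, which fell by 1.00. It had 65.1, 40.9 and 37.5 in chromatin and 2.02, 3.60 and 2.90 in nucleoplasm, a log2 fold change of 3.65.

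Of the 5 loci outside introns that rose more than 4-fold, Gm7444, Gm6607 and Gm14267 are described above. AC116841.1 and Mospd4 lie on chromosome 18. AC116841.1, a copy of the cytoskeletal linker gene Dst, had 1614, 1564 and 1420 in chromatin and 368.9, 354.8 and 355.9 in nucleoplasm, and its log2 fold change of 2.09 was close to the 2.26 of Dst. Mospd4, for which no parent was found, rose by 2.87 log2 units, from 2.76 ± 2.04 in nucleoplasm to 24.2 ± 2.78 in chromatin (SD, n = 3), and was named after its values were seen.

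Long reads, which come from the chromatin fraction alone, overlapped most of the loci. At least 1 base of a long-read transcript above 0 TPM (the abundance per transcript length, scaled to a fixed total per library) in at least 1 of the 2 libraries, on either strand, was shared by 676 of the 898 loci (75.3%). Over all 19725 assembled loci above 0 the share was 90.0%, and over the 1420 whose span lay between the quartiles of the pseudogene loci it was 70.3%. Intronic loci were overlapped in 86 of 101 cases (85.1%) and the others in 590 of 797 (74.0%). A long-read model of like span, with a Jaccard index of at least 0.5, existed for 512 loci (57.0%), against 73.1% of all assembled loci and 45.0% of those of similar span. Of the intronic loci 52 (51.5%) had one and of the others 460 (57.7%), the reverse of the order for any overlap. Among these 512 models 307 were assembled on the strand of the locus and 205 on the other. The long-read cDNA kit does not record which strand a molecule came from, so the strand of a model is uncertain. A model on the strand of the locus was found for 47.6% of the loci, 68.3% of the intronic and 44.9% of the others, against 83.2% of all assembled loci and 49.4% of those of similar span.

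Loci with a long-read model of like span had a median level above that of all long-read transcripts. The other 386 loci have no such level, and no set of similar span was compared. The 512 models of like span had a median of 75.7 TPM in replicate 1 and 79.0 TPM in replicate 2, and a median mean of 75.5 TPM against 2.60 TPM over all 109118 long-read transcripts above 0. In both libraries 500 of them were above 0. Gm12715 and Gm15459 had 827.8 and 402.7 TPM, and 705.7 and 540.8 TPM, in replicates 1 and 2. Of the 819 loci lower in chromatin 479 (58.5%) had a model of like span, and of the 20 higher ones 12. Gm7444 and Gm16523 were near the low end with 1.69 and 1.58 TPM, and 1.69 and 2.68 TPM. Lower still were Gm6607 with 0.00916 and 0.00162 TPM and Gm14267 with 0 and 0.332 TPM. Gm13487, also among the 12, had 103.0 and 76.7 TPM. Gm6736, with under 8 short-read counts in each chromatin library, had 53.0 and 39.8 TPM in the long-read chromatin libraries, by a model whose assembled strand, uncertain as said, was the opposite one. Loci with such a model had a median of 399.7 normalized counts per kilobase in chromatin and those without 197.5. Across the 512 loci the short-read level per kilobase and the mean TPM had a Spearman's rho of 0.61, a description of loci whose reads the parents can share on both platforms.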

How the data were processed

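The authors aligned short reads of HL1 cells to mm10 with HISAT2 2.1.0, assembled and merged transcripts with StringTie, counted genes and deposited the counts after division by DESeq2 size factors, so each value is a normalized count signal. How reads with several placements were assigned is not given in the sources used here. The long-read values deposited are TPM that StringTie computed. Samples were grouped by their titles, since a label field reads chromatin for every library, nucleoplasm included.

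Members and gene lists were chosen with earlier results of these data known. Fractions were compared in R 4.3.3 by limma 3.58.1 on log2(normalized count + 1), its prior variance following the mean, with edgeR 4.0.16 and DESeq2 1.42.0 on recovered reads as alternatives, where 100% of the values of each library were whole reads within 0.01. The fits were tested on simulated data. Parents were assigned with blastn 2.17.0 to coding transcripts of at least 2 exons, at 80% identity over 50% of the pseudogene or more. Named loci were the 5 highest means in introns and the 5 elsewhere, and the largest changes (6 rises and 6 falls elsewhere, 4 and 4 in introns, where only 2 rises qualified) with an adjusted p under 0.05, a mean of at least 50 and 3 replicate-number pairs that all changed the same way. To these were added 2 loci inside and 2 outside the Jaccard limit, parents, hosts, 4 controls and the loci marked as named after their values were seen. Computations used Python 3.11.15, numpy 2.4.6, pandas 2.3.3 and scipy 1.17.1.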

Additional observations from a re-analysis of the deposited data

How the results depend on the processing

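Counts of higher and lower loci were recomputed with a pseudocount of 0.1, a minimum mean of 10, no trend, quantile normalization, edgeR and DESeq2 on the recovered reads, and without each library, and stayed within 1.5 times the values given. Leaving out a library gave 798 to 824 lower, 16 to 22 higher and 470 to 526 more than 4-fold lower loci. With ERCC scaling there were 34 higher loci (28 outside introns), 33 more than 4-fold lower, and a median of -1.36. The cause was not tested. On the recovered reads edgeR called 815 lower and 15 higher (median -2.20), and DESeq2 813 and 20. A Jaccard index of at least 0.8 leaves fewer loci: 11 higher, 314 lower, 3 and 221 past 4-fold, 2 and 37 in introns, 9 and 277 elsewhere, and a median of -2.17. An intron on either strand gave 230 intronic loci that were lower. Loci with at least 50% own 50-base words, chosen after seeing the data, gave 304 lower (32 in introns, 272 elsewhere) and 173 more than 4-fold lower. Leaving out replicate 3 of both fractions, also chosen after seeing the data, gave 823 lower and 21 higher. The planned split by words that occur once in the genome was not run, as no genome sequence was used. A long-read model on the same strand was found at 427 loci. Of 420 comparisons of a named locus with an alternative 418 kept direction and call. With ERCC scaling Gm5903 turned to 0.15 and Gm6560 lost its call.

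Same-numbered libraries of the fractions had correlations of their deviations of 0.0975, 0.0883 and 0.222, and others -0.138 to 0.0606, so every library correlated best with its own number, a hint from the data only. With the replicate block limma called 828 loci lower and 22 higher, and 838 of the 839 loci called without it were called again.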
